A study of Mus musculus with 26 samples.

Results

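Importins carry proteins into the nucleus, and the family described here is made of 6 importin alpha genes, Kpna1, Kpna2, Kpna3, Kpna4, Kpna6 and Kpna7, and of Kpnb1, which encodes importin beta. Its members are the rows whose Ensembl ID carries one of these symbols in the GENCODE vM21 annotation, 7 of 55401 genes in the count table, and all 7 were found and had counts. RNA was measured in mouse 1-cell embryos and in MII oocytes, mature eggs before fertilisation, in metaphase of the second meiotic division. Embryos came from in vitro fertilisation of B6D2F1 oocytes, taken from superovulated females aged 8 weeks, with B6D2F1 sperm. The libraries form 2 series, numbered apart. The first holds 7 libraries of embryos treated with the c-Myc inhibitor 10058-F4, a compound that keeps the transcription factor c-Myc from pairing with Max, and 7 libraries of untreated control embryos. The treatment began 2 h after sperm and oocytes were mixed and lasted 10 h. The second series holds 4 libraries of embryos kept in 100 µg/ml alpha-amanitin, which blocks RNA polymerase II, for 10 h beginning 1 h after mixing, 4 libraries of untreated control embryos and 4 libraries of MII oocytes. The labels give every embryo group an age of 10 h and the oocytes an age of 0 h, although the start and length of either treatment add up to more than 10 h after mixing, and to more for the c-Myc inhibitor than for alpha-amanitin. Neither the dose of 10058-F4 nor how many embryos or oocytes each library holds is given outright in the sources used here, so n counts libraries and the p-values measure the spread between libraries, which may be partly technical.

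An importin alpha binds the nuclear localisation signal of a cargo protein and joins it to importin beta, which takes the complex through the nuclear pore. In the nucleus the small GTPase Ran, loaded with GTP by Rcc1, frees the cargo, and the exportin Cse1l returns importin alpha to the cytoplasm. The importin alphas fall into subfamilies that prefer different cargoes, one with Kpna2 and Kpna7, one with Kpna3 and Kpna4 and one with Kpna1 and Kpna6. Kpna7 is the oocyte-enriched importin alpha of mammals, and in mouse its loss reduces the survival of early embryos. A 1-cell embryo still lives largely on RNA stored by the oocyte while its own genome begins to be transcribed, and the nuclear proteins it needs enter both newly formed pronuclei through this machinery. Importin alpha and beta also hold back spindle factors such as Tpx2 until Ran releases them.

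Levels are given as CPM, each gene's counts as a share of its library's total, where the total was first adjusted by TMM so that a handful of abundant genes does not set the scale. The libraries of the c-Myc inhibitor series held 20566278 to 27266040 counts, and those of the alpha-amanitin series 5371602 to 31540627. A CPM is a share of the library, so a gene that fell and others that rose cannot be told apart, nor can fewer cells of a type and less RNA per cell. A pair of alpha-amanitin libraries stood apart. Replicate 3 was the shallowest of the 26 libraries, and in replicates 3 and 1 the share of counts in genes absent from all 4 oocyte libraries was 1.165% and 1.22%, against 0.0537% to 0.503% in the other embryo libraries. The oocyte marker list, 8 genes of which all had counts in every group, summed to 7591 CPM in c-Myc inhibitor embryos and 4869 CPM in their controls. In the other series it summed to 5769 CPM in alpha-amanitin embryos, 4890 CPM in control embryos and 8507 CPM in MII oocytes. Not every gene of the list moved with the sum. Markers of cumulus and granulosa cells, which surround the oocyte, summed to at most 11.9 CPM in any library, and sperm and spermatid markers to at most 28.2 CPM. Of the latter, Tnp1, Tnp2 and Smcp were at 0 in all groups. Prm2 averaged 5.77 to 11.2 CPM in the groups and was highest in MII oocytes, which had not been fertilised. Akap4, Oaz3, Odf1 and Prm1 averaged at most 3.93 CPM in any group.

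Kpna2 (ENSMUSG00000018362) lies on the minus strand at chr11:106988629-106999541 of GRCm38 and encodes an importin alpha that is abundant in proliferating and early embryonic cells. Its close relative Kpna7 (ENSMUSG00000038770) lies on the minus strand at chr5:144983519-145084030. Because c-Myc and Max bind the E-box CACGTG, the 250 bases before the RefSeq start of both genes are shown, from RefSeq on GRCm38.p6, 5′ to 3′ on the gene's own strand, with the letters of the CCAAT box in capitals (CCAAT, or ATTGG for the other strand).
Kpna2, chr11:106999526-106999775: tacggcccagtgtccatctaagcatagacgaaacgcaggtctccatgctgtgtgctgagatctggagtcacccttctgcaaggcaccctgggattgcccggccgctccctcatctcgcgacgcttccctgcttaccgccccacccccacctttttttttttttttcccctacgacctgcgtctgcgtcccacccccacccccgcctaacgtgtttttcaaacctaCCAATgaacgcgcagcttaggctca
Kpna7, chr5:145009637-145009886: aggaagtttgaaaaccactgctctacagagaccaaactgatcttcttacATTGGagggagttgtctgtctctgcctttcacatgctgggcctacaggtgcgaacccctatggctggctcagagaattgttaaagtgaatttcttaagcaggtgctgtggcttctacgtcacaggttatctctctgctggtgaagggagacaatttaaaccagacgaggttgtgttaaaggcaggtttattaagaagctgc
The RefSeq start of Kpna7 lies inside the longer gene span of GENCODE vM21. A promoter sequence was matched for 4 of the 7 members, Kpna2, Kpna4, Kpna7 and Kpnb1, and none of these 4 windows held the letters CACGTG, which reads the same on both strands and which 6.02% of 32851 promoter windows of that length held. CCAAT letters, counted on both strands, occurred 1 time in Kpna2, 2 times in Kpna4, 1 time in Kpna7 and 3 times in Kpnb1, and 33.8% of all promoter windows held at least 1. The 2 motifs share no overlap, and a match or its absence describes only the letters of these windows.

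Kpna2 was lower in c-Myc inhibitor embryos than in their controls by a small margin. Against oocytes it was called higher in 1 of the 2 sets of control embryos. In c-Myc inhibitor embryos it lay between 625.1 and 709.9 CPM with a median of 655.4, and in their controls between 694.1 and 817.3 CPM with a median of 750.8. The ranges overlapped, with 1 inhibitor library (709.9 CPM) above 2 control libraries (694.1 and 702.4 CPM). The mean was 656.8 ± 28.7 CPM in c-Myc inhibitor embryos and 758.3 ± 48.5 CPM in controls (SD, n = 7 each). The edgeR adjusted p was 0.02992, at a log2 fold change of -0.21 (SE 0.06). The call rested on which libraries entered: leaving out control replicate 1, 2 or 4, or inhibitor replicate 1, 2 or 4, took the adjusted p past 0.05, to at most 0.06806, while the log2 fold change stayed between -0.23 and -0.19.

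The other series gave lower Kpna2 levels throughout. Alpha-amanitin embryos had 437.3, 502.5, 418.5 and 498.3 CPM, control embryos 488.6, 407.7, 416.1 and 411.5 CPM, and MII oocytes 290.8, 306.3, 342.4 and 371.7 CPM. Every embryo library lay above every oocyte library, while alpha-amanitin and control embryos overlapped. Kpna2 averaged 464.1 ± 42.6 CPM in alpha-amanitin embryos and 431.0 ± 38.6 CPM in controls (SD, n = 4 each). The log2 fold change was 0.11 with a 95% interval of -0.18 to 0.41 (edgeR adjusted p = 0.9984). Against the mean of 327.8 ± 36.4 CPM in oocytes (SD, n = 4), the log2 fold change was 0.40 in control embryos (SE 0.14, unadjusted p = 0.01179, edgeR adjusted p = 0.1673) and 0.51 in alpha-amanitin embryos (SE 0.14, unadjusted p = 0.001977, edgeR adjusted p = 0.0832). Neither passed the threshold of 0.05 in this fit. With alpha-amanitin replicate 3 left out, the second did (log2 fold change 0.55, edgeR adjusted p = 0.04803), and DESeq2 called both on all libraries, with adjusted p of 0.009036 for control embryos and 0.0002297 for alpha-amanitin embryos.

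**Figure D1:**
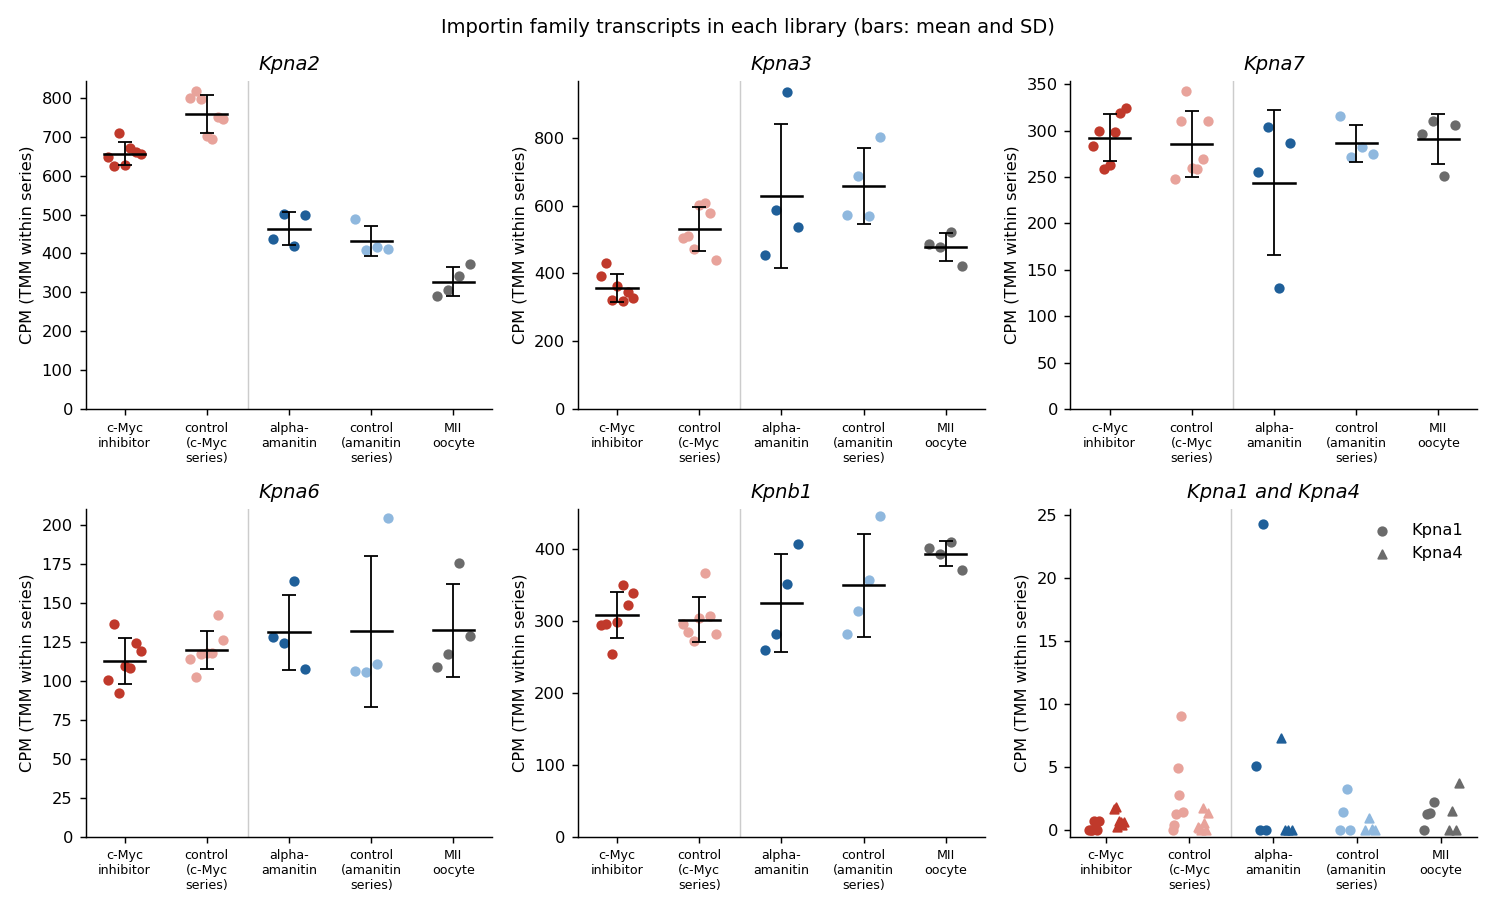
Level of each importin family transcript in every library, in CPM on a linear axis that starts at 0. Points are libraries, horizontal bars are group means and vertical bars SD (7 libraries in each group of the c-Myc inhibitor series, 4 in each other group). Kpna1 and Kpna4 share the last panel, as circles and triangles. Kpna3 separates c-Myc inhibitor embryos from their controls, Kpna7 lies between 247.9 and 343.0 CPM in all but 1 library, and that library, alpha-amanitin replicate 3, is at 130.7 CPM.

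Scaling all 26 libraries together put Kpna2 at 774.6 CPM in the first series' controls, those of the c-Myc inhibitor, against 425.4 CPM in control embryos of the alpha-amanitin series and 321.0 CPM in MII oocytes. The difference between the 2 sets of controls was 0.86 on the log2 scale (SE 0.09, edgeR adjusted p = 1.247e-07), and that from the oocytes 1.27 (SE 0.09, edgeR adjusted p = 1.328e-11). Kpna2 was the 1 member called in each of these comparisons, in which 3.52% and 8.62% of 16319 genes were called, 2.21% and 4.26% as higher. Both sets of controls carry the same label, so series, and in the second comparison stage as well, cannot be told apart as the source of the difference. Whether both sets were collected at the same time after mixing was not tested, since the treatment times of the 2 series differ while the labelled age is the same. Where Kpna7 is concerned, the same 2 comparisons gave log2 fold changes of 0.04 and 0.03, with 95% intervals of -0.25 to 0.34 and -0.26 to 0.33.

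Kpna7 did not differ detectably in any of the 7 comparisons run. It lay between 258.5 and 324.6 CPM in c-Myc inhibitor embryos, with a median of 298.2, and between 247.9 and 343.0 CPM in their controls, with a median of 269.8. The ranges overlapped almost wholly, and the log2 fold change was 0.03 with a 95% interval of -0.14 to 0.21 (edgeR adjusted p = 0.897). In the alpha-amanitin series, the treated embryos had 255.6, 303.9, 130.7 and 286.5 CPM, control embryos 315.4, 272.0, 283.0 and 275.3 CPM, and MII oocytes 296.8, 310.1, 250.9 and 306.6 CPM. Only alpha-amanitin replicate 3, the shallowest library, lay outside the range of the other groups of the series. Kpna7 averaged 286.4 ± 19.9 CPM in control embryos and 291.1 ± 27.4 CPM in oocytes (SD, n = 4 each), which is -0.02 on the log2 scale with a 95% interval of -0.45 to 0.41 (edgeR adjusted p = 0.9997). Alpha-amanitin embryos averaged 244.2 ± 78.3 CPM (SD, n = 4), and the log2 fold change was -0.22 against control embryos (95% interval -0.66 to 0.21, edgeR adjusted p = 0.9984) and -0.24 against oocytes (95% interval -0.68 to 0.19, edgeR adjusted p = 0.9054). Both came to nearly 0 without the libraries that stood apart, at 0.03 and 0.01 with alpha-amanitin replicates 1 and 3 left out. Reads cannot be told apart where 50 exon bases of Kpna7 overlap Arpc1a on the other strand, but Arpc1a averaged 67.1 counts per library against 6276.3 for Kpna7.

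Kpna3 (ENSMUSG00000021929, chr14:61365211-61439874, minus strand), the importin alpha that in other cells carries cargoes such as the NF-kappaB proteins, showed the clearest response in the family. C-Myc inhibitor embryos had 318.1 to 432.4 CPM with a median of 344.9, and their controls 439.4 to 606.9 CPM with a median of 510.8. No inhibitor library reached the lowest control. The means were 357.3 ± 42.2 CPM in inhibitor embryos and 530.7 ± 65.6 CPM in controls (SD, n = 7 each). On the log2 scale Kpna3 fell by 0.57 (SE 0.09, edgeR adjusted p = 7.006e-05). The call held in each of the 14 fits that left out 1 library, with adjusted p of at most 0.0003862. In this comparison 10.9% of the 13003 genes tested were called. Of all genes tested, 4.08% were called lower, and 1.06% were lower with ranges that did not overlap. Of the 7 members, Kpna2 and Kpna3 were called, both lower, and Kpna3 alone was separated without overlap. The sum of oocyte markers moved with this contrast, at 6920 to 8669 CPM in inhibitor embryos and 4126 to 5914 CPM in controls. The largest parts of that difference were Gdf9 (means of 1944 and 415.1 CPM) and H1foo (1740 and 556.8 CPM). In MII oocytes of the other series Gdf9 averaged 2126 CPM, H1foo 1294 CPM and the sum 8507 CPM. Zar1, Oosp1 and Zp3 were also higher in inhibitor embryos, while Bmp15 (1206 and 1375 CPM), Nlrp5 (1017 and 1111 CPM) and Dppa3 (653.5 and 730.5 CPM) were lower. The part of the markers in the result for Kpna3 was not tested.

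In the alpha-amanitin series Kpna3 was more variable. The treated embryos had 456.0, 588.3, 937.2 and 537.2 CPM, control embryos 572.5, 689.2, 568.5 and 802.6 CPM, and MII oocytes 487.5, 477.6, 522.9 and 422.7 CPM. The highest value came from alpha-amanitin replicate 3, the library with the lowest Kpna7. Control embryos lay wholly above oocytes, with a mean of 658.2 ± 111.4 CPM against 477.7 ± 41.5 CPM (SD, n = 4 each), but the log2 fold change of 0.47 did not pass after adjustment (SE 0.19, unadjusted p = 0.02481, edgeR adjusted p = 0.2371). Alpha-amanitin and control embryos overlapped, with a log2 fold change of -0.06 and a 95% interval of -0.45 to 0.34 (edgeR adjusted p = 0.9984). Alpha-amanitin embryos also overlapped with oocytes, at 0.41 on the log2 scale (SE 0.19, edgeR adjusted p = 0.4506).

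Its partner Kpna4 (ENSMUSG00000027782, chr3:69067149-69127113, minus strand) was hardly detected. It reached at most 1.85 CPM in c-Myc inhibitor embryos, 1.76 CPM in their controls, 7.33 CPM in alpha-amanitin embryos, 1.00 CPM in the controls of that series and 3.73 CPM in MII oocytes, and libraries at 0 occurred in every group but the c-Myc inhibitor embryos. A count of 0 allowed a level of up to 0.115 to 0.559 CPM in the libraries concerned, taking 3 counts as the limit, and this covers counting error only.

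Kpna1 and Kpna6 form the third subfamily, and the embryos and oocytes held mainly the RNA of Kpna6. Kpna6 (ENSMUSG00000003731, chr4:129643980-129672767, minus strand) had 92.2 to 136.5 CPM in c-Myc inhibitor embryos, with a median of 109.8, and 102.4 to 142.3 CPM in their controls, with a median of 117.8. The log2 fold change was -0.09 with a 95% interval of -0.29 to 0.12 (edgeR adjusted p = 0.717). Alpha-amanitin embryos had 128.6, 124.6, 164.5 and 107.5 CPM, control embryos 106.3, 105.9, 110.7 and 204.7 CPM, and MII oocytes 109.1, 117.1, 175.9 and 129.0 CPM. The 3 groups overlapped, each with 1 library above the rest, and every log2 fold change among them lay within 0.01 of 0, with 95% intervals about 0.53 to either side.

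Kpna1 (ENSMUSG00000022905, chr16:35978750-36037131, plus strand) was low and uneven, with libraries at 0 in every group. It was at 0 in 4 of 7 c-Myc inhibitor libraries and at most 0.780 CPM in the others, and it was at 0 in 1 of 7 control libraries and otherwise at 0.464 to 9.05 CPM. The fitted log2 fold change, -3.67 with an SE of 1.28, rests on low levels that varied widely between libraries, and it did not pass in edgeR (adjusted p = 0.0686). It did in DESeq2 (adjusted p = 0.02486) and in edgeR with control replicate 1 left out (adjusted p = 0.04569). Alpha-amanitin embryos had 5.10, 0, 24.3 and 0 CPM, control embryos 0, 1.42, 3.32 and 0 CPM, and MII oocytes 0, 1.29, 1.35 and 2.27 CPM. The highest value was again in alpha-amanitin replicate 3.

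Kpnb1 (ENSMUSG00000001440, chr11:97159714-97187881, minus strand), the importin beta to which all these importin alphas bind, did not differ detectably under either inhibitor. It lay between 254.5 and 350.6 CPM in c-Myc inhibitor embryos (median 299.2) and between 272.2 and 366.8 CPM in their controls (median 295.6), with a log2 fold change of 0.03 and a 95% interval of -0.14 to 0.20 (edgeR adjusted p = 0.905). Alpha-amanitin embryos had 259.1, 281.5, 352.1 and 407.6 CPM, control embryos 281.9, 314.0, 356.8 and 446.7 CPM, and MII oocytes 402.3, 393.0, 409.6 and 370.7 CPM. Oocyte libraries lay close together, and most embryo libraries of that series lay below all of them. Only the control library at 446.7 CPM lay above, and the alpha-amanitin library at 407.6 CPM lay within their range. Alpha-amanitin embryos differed from control embryos by -0.10 on the log2 scale (95% interval -0.46 to 0.27), control embryos from oocytes by -0.17 (95% interval -0.53 to 0.20), and alpha-amanitin embryos from oocytes by -0.27 (95% interval -0.63 to 0.10). The second set of controls, from the c-Myc inhibitor series, differed from the oocytes by -0.32 (SE 0.13, edgeR adjusted p = 0.1216). DESeq2 and limma voom called this last difference, with adjusted p of 0.03752 and 0.02828.

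**Figure D2:**
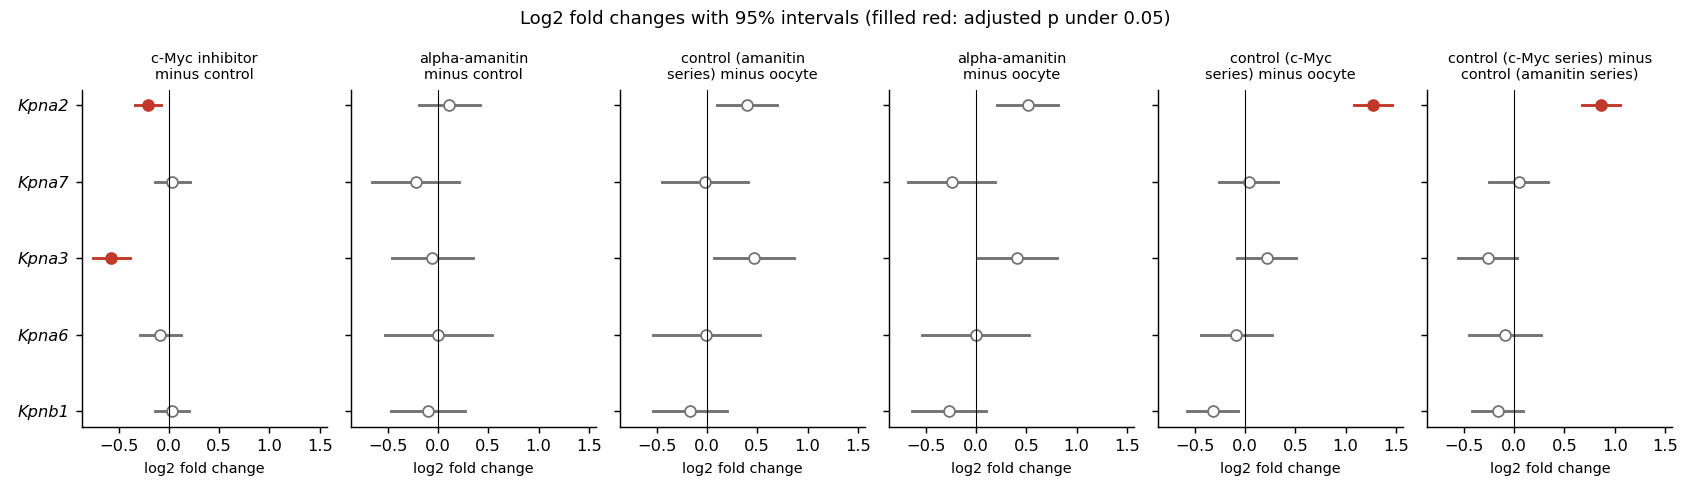
Log2 fold change (x axis) of the 5 members above 10 CPM in 6 comparisons, each named above its panel with the first group minus the second. Points are edgeR estimates, lines are 95% intervals, and filled red marks an adjusted p under 0.05. Kpna2 and Kpna3 are lower in c-Myc inhibitor embryos, Kpna2 is higher in the controls of that series than in oocytes or in the other controls, and every interval of Kpna7 includes 0.

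No member was called between alpha-amanitin and control embryos, where 0.0305% of 13133 genes, 4 in all, were called. The count of members was 0 also at an unadjusted p under 0.05, in DESeq2 and in limma voom. No member was called between control embryos and oocytes, where 2.89% of genes were, or between alpha-amanitin embryos and oocytes, where 1.71% were. At an unadjusted p under 0.05 there were 2 members, Kpna2 and Kpna3, in both of these. DESeq2 called 1 member, Kpna2, in both, and limma voom called 0 in the first and 1, Kpna2, in the second. In the first, ranges did not overlap for 4.9% of genes that were higher, and Kpna2 and Kpna3 were among these. In the second, 3.28% of genes were higher without overlap, and Kpna2 was among them.

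Whether the c-Myc inhibitor and alpha-amanitin differed in their effects was tested in the 22 embryo libraries as the difference of the 2 log2 fold changes. This difference was -0.31 for Kpna2 (95% interval -0.57 to -0.06, edgeR adjusted p = 0.1795), -0.51 for Kpna3 (95% interval -0.94 to -0.08, adjusted p = 0.2026), 0.26 for Kpna7 (95% interval -0.17 to 0.70, adjusted p = 0.6094) and 0.14 for Kpnb1 (95% interval -0.24 to 0.52). None passed, while 1.04% of 15790 genes did, so the fall of Kpna3 under the c-Myc inhibitor was not shown to differ from its value under alpha-amanitin. Unadjusted, 3 members had p under 0.05, namely Kpna1, Kpna2 and Kpna3. DESeq2 called 1 member, Kpna2 (adjusted p = 0.01502), and limma voom called 0.

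To set the genes beside each other, CPM were divided by the length of each gene's merged exons in kb, on 1 scaling of all 26 libraries. In c-Myc inhibitor embryos the mean levels per kb ran Kpna2 231.5, Kpna7 94.5, Kpna3 84.2, Kpnb1 47.4 and Kpna6 17.0. In their controls they ran Kpna2 269.6, Kpna3 126.2, Kpna7 93.1, Kpnb1 46.8 and Kpna6 18.2. Kpna3 and Kpna7 thus exchanged places between these groups, although in each the libraries of the 2 genes overlapped. Alpha-amanitin embryos gave Kpna2 157.5, Kpna3 143.4, Kpna7 75.8, Kpnb1 48.2 and Kpna6 19.1 CPM per kb, and their controls Kpna3 151.2, Kpna2 148.1, Kpna7 90.2, Kpnb1 52.4 and Kpna6 19.3. MII oocytes gave Kpna2 111.7, Kpna3 108.8, Kpna7 90.9, Kpnb1 58.5 and Kpna6 19.3 CPM per kb. On this measure of length Kpna2 and Kpna3 overlapped in these 3 groups and their order was not resolved (with the longest transcript as length, Kpna2 lay above Kpna3 without overlap in control embryos and oocytes), and in alpha-amanitin embryos Kpna7 overlapped with Kpnb1 as well. Kpna1 and Kpna4 averaged below 1 CPM per kb in every group and overlapped with each other. Kpna7 stood above 98.4% to 98.8% of 33929 genes per kb, depending on the group.

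Taken as a share of all importin alpha RNA per kb, Kpna7 was 22.1 ± 1.6% in c-Myc inhibitor embryos and 18.3 ± 2.0% in their controls (SD, n = 7 each). It was 19.4 ± 6.5% in alpha-amanitin embryos, 22.1 ± 2.0% in control embryos and 27.5 ± 3.0% in MII oocytes (SD, n = 4 each). Oocyte libraries, at 23.05 to 29.58%, overlapped with control embryos of the same series (19.59 to 23.97%) and with c-Myc inhibitor embryos (19.71 to 24.33%). These shares are descriptions, and Kpna7 itself was not called in any of the 7 comparisons. Kpna2 made up 54.2 ± 2.7% in c-Myc inhibitor embryos and 53.1 ± 2.5% in their controls, and 39.9 ± 4.2% in alpha-amanitin embryos, 36.3 ± 3.7% in control embryos and 33.7 ± 2.9% in oocytes. Kpna3 made up 19.7 ± 2.2% in c-Myc inhibitor embryos and 24.9 ± 3.3% in their controls, and 35.7 ± 9.9%, 36.9 ± 4.6% and 32.9 ± 3.1% in alpha-amanitin embryos, control embryos and oocytes. The ratio of Kpna2 to Kpna7 per kb was 2.47 ± 0.27 in c-Myc inhibitor embryos and 2.92 ± 0.32 in controls, and 2.27 ± 0.82 in alpha-amanitin embryos, 1.64 ± 0.04 in control embryos and 1.24 ± 0.20 in oocytes. Alpha-amanitin replicate 3 set the spread of its group, with a ratio of 3.50 where the other 3 libraries had 1.80, 1.87 and 1.90.

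**Figure D3:**
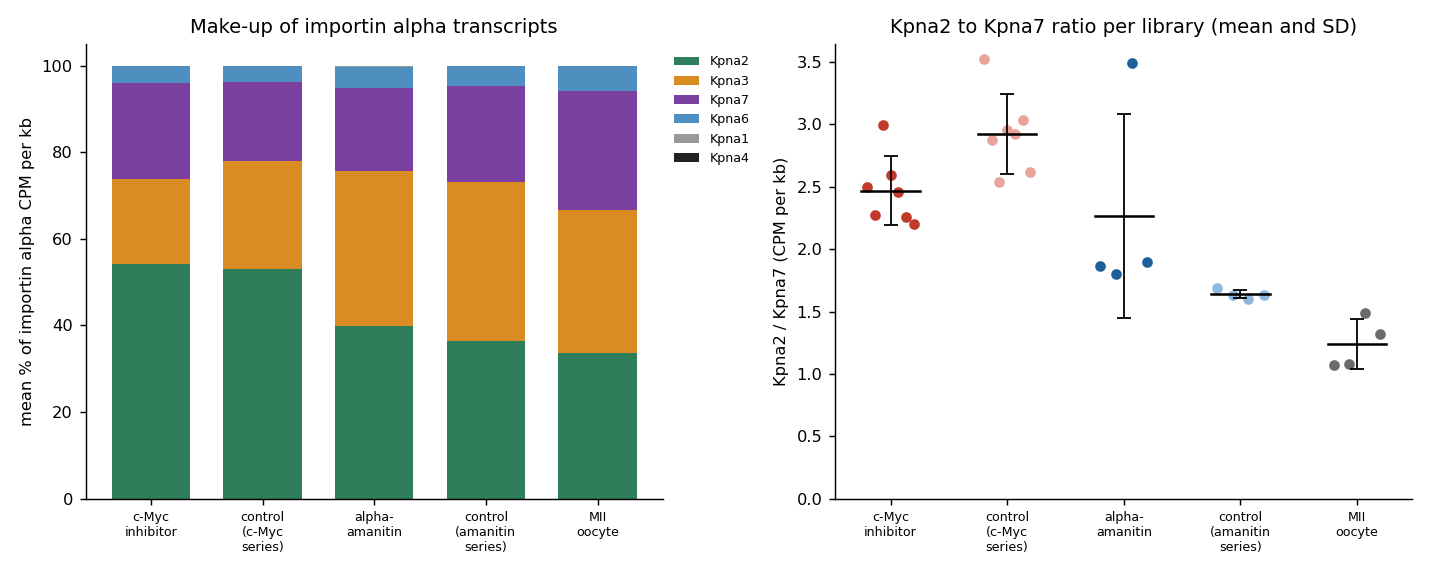
Left, mean percent of importin alpha CPM per kb taken by each gene in the 5 groups, on an axis from 0. Right, ratio of Kpna2 to Kpna7 CPM per kb in each library (points) with mean and SD (bars). Kpna7 takes on average 27.5% of importin alpha RNA in MII oocytes and 18.3% to 22.1% in the embryo groups. Oocyte libraries overlap in this share with c-Myc inhibitor embryos and with the controls of the alpha-amanitin series. The mean ratio is lowest in oocytes, at 1.24, and highest in the controls of the c-Myc inhibitor series, at 2.92.

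The importin alphas together came to 427.2 ± 9.4 CPM per kb in c-Myc inhibitor embryos and 507.5 ± 16.3 in their controls (SD, n = 7 each), with ranges of 411.2 to 441.5 and 488.8 to 532.1 that did not overlap. The gap was mostly that of the members called, Kpna2 (231.5 and 269.6 CPM per kb) and Kpna3 (84.18 and 126.2). Kpna7 (94.45 and 93.13) and Kpna6 (17.0 and 18.19) differed little. Of single genes tested in this comparison, 1.06% were lower without overlap. In the other series the sum was 396.8 ± 36.4 in alpha-amanitin embryos, 408.9 ± 27.0 in control embryos and 331.0 ± 10.4 in oocytes (SD, n = 4 each). Relative to the binding partner Kpnb1, the sum was 9.11 ± 0.98 in c-Myc inhibitor embryos and 10.9 ± 1.2 in controls. It was 8.46 ± 1.48 in alpha-amanitin embryos, 8.01 ± 1.45 in control embryos and 5.67 ± 0.34 in oocytes. Each oocyte library, at 5.33 to 6.14, lay below every embryo library, of which the lowest was at 6.56. Neither the sums nor these ratios were tested, and no share over all genes was computed for them.

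Stability across the 5 groups was measured as the root mean square of a gene's centred log2 group means, over 7240 genes with at least 10 CPM. Only group means enter this measure, so the spread between libraries of a group does not. It was 0.06 for Kpna6, 0.12 for Kpnb1, 0.14 for Kpna7, 0.29 for Kpna3 and 0.46 for Kpna2. Smaller values were found for 0.539% of genes in the case of Kpna6, 6.84% for Kpnb1, 9.82% for Kpna7, 49.0% for Kpna3 and 73.8% for Kpna2. The genes whose 5 group means were most like those of Kpna7 were Arrb2, Cdc42se1, Ubac1, Gse1 and Dclk2, with root mean square differences of 0.033, 0.038, 0.042, 0.042 and 0.042 on the log2 scale. All 6 genes share a flat pattern with 1 dip: Kpna7 lay at -0.28 in alpha-amanitin embryos and at 0.04 to 0.11 in the other groups, and that dip of Kpna7 rested on alpha-amanitin replicate 3. Whether the dip of the other 5 genes rested on the same library was not tested.

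The rest of the nuclear transport machinery was described with 4 lists, of beta-type importins, exportins, Ran cycle proteins and nucleoporins, which hold 57 genes, 55 of them tested. In c-Myc inhibitor embryos 4 of them rose and 4 fell relative to controls, where 6.82% of all genes were called higher and 4.08% lower. With so few genes, these counts lie near the background. All 8 were nucleoporins, the proteins of the pore itself, which made up 29 of the 55 genes tested. The median log2 fold change of the 55 was -0.06, beside -0.0005 over all genes tested. Ndc1, a membrane nucleoporin that anchors the pore in the nuclear envelope, was at 62.7 ± 12.3 CPM in inhibitor embryos and 19.2 ± 3.8 CPM in controls (log2 fold change 1.71, edgeR adjusted p = 6.807e-08). Pom121, another membrane nucleoporin, was at 561.2 ± 57.2 and 420.8 ± 26.3 CPM in inhibitor and control embryos (log2 fold change 0.41, edgeR adjusted p = 0.0004078). Gle1, which acts in mRNA export, was higher by 0.31. The lower ones included Nup54 of the central channel, at 131.3 ± 17.4 CPM in inhibitor embryos and 183.4 ± 19.6 CPM in controls (log2 fold change -0.48, edgeR adjusted p = 0.001324). Nup35 and Nup160, both scaffold nucleoporins, were lower by log2 fold changes of -0.58 and -0.42. The remaining called genes, singled out after their values were seen, were Nup205 (0.54) and Nup155 (-0.40).

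Between alpha-amanitin and control embryos 0 of these 55 genes were called, and the median was 0.03, beside -0.01 over all genes. Of the 55, 2 were called between control embryos and oocytes and 1 between alpha-amanitin embryos and oocytes, where 2.89% and 1.71% of all genes were called, so these counts lie near the background. Nup50, a nucleoporin that helps to release cargo from importin alpha, was at 413.2 ± 24.7 CPM in control embryos and 265.1 ± 21.1 CPM in oocytes (log2 fold change 0.64, edgeR adjusted p = 0.02999). Ndc1 was at 18.6 ± 9.8 CPM in alpha-amanitin embryos and 21.9 ± 8.3 CPM in control embryos, against 93.9 ± 22.2 CPM in oocytes (log2 fold changes -2.32 and -2.10, edgeR adjusted p = 0.01152 and 0.01505). The level of Ndc1 in c-Myc inhibitor embryos lay between that of oocytes and those of the other embryo groups, with each series scaled on its own. The medians of the 4 lists were -0.08 and -0.34 in alpha-amanitin and control embryos against oocytes, beside -0.04 and -0.03 over all genes tested.

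The partners Cse1l, Ran, Rcc1 and Tpx2 were not called in any of the 7 comparisons. Under the c-Myc inhibitor and in its controls, Cse1l, the export receptor of importin alpha, averaged 32.9 ± 6.5 and 37.1 ± 7.2 CPM, Ran 28.0 ± 7.2 and 25.1 ± 7.3 CPM, and Rcc1 31.9 ± 3.1 and 31.0 ± 7.5 CPM (SD, n = 7 each). Tpx2, a spindle assembly factor held by importin alpha, averaged 344.4 ± 28.5 CPM in inhibitor embryos and 362.2 ± 29.1 CPM in controls, with a log2 fold change of -0.07 and a 95% interval of -0.23 to 0.08. In the other series Cse1l averaged 62.8 ± 36.0 CPM in alpha-amanitin embryos, 31.4 ± 10.4 CPM in control embryos and 66.9 ± 14.2 CPM in oocytes (SD, n = 4 each). The alpha-amanitin mean rested on replicates 1 and 3, which stood apart, at 67.0 and 112 CPM. Replicates 2 and 4, at 38.5 and 33.6 CPM, lay within the control range of 23.7 to 46.0 CPM. Control embryos lay below oocytes in Cse1l without overlap, -1.09 on the log2 scale (SE 0.42, edgeR adjusted p = 0.1988). The same held for 1254 of the 13133 genes tested. Of 4 spindle factors known to be held by importins (Tpx2, Numa1, Kifc1 and Nusap1), 1 was called under the c-Myc inhibitor, where 10.9% of all genes were called, and none in the 3 comparisons of the alpha-amanitin series. Between the 2 sets of controls 2 were called, Numa1 (0.61) and Kifc1 (1.36, a spindle motor), both higher in those of the c-Myc inhibitor series and both named after their values were seen, where 3.52% of all genes were called. Under the c-Myc inhibitor the called gene was Numa1, a protein of the spindle poles, at 341.6 ± 64.2 CPM in inhibitor embryos and 242.5 ± 42.7 CPM in controls (log2 fold change 0.49, edgeR adjusted p = 0.007887).

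**Figure D4:**
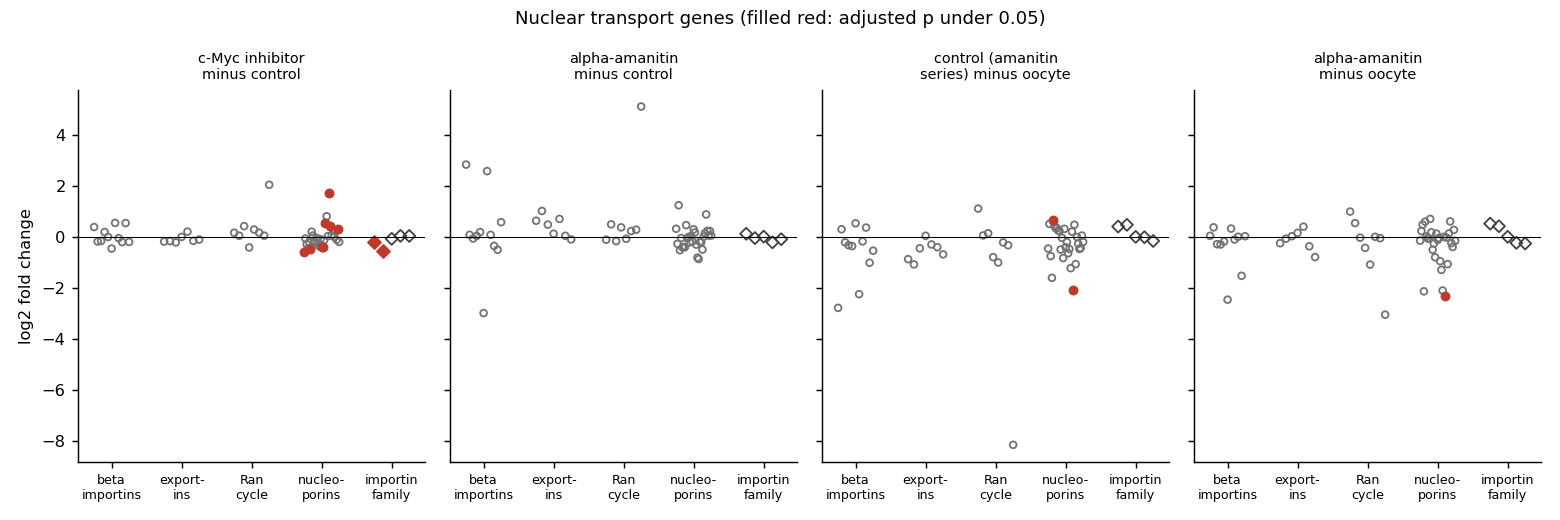
Log2 fold changes (y axis) of the nuclear transport lists and of the 5 importin members above 10 CPM in 4 comparisons. Each point is a gene, circles are list genes, diamonds are importin members, and filled red marks an edgeR adjusted p under 0.05. Under the c-Myc inhibitor the filled points are 8 nucleoporins, 4 above and 4 below 0, and the importins Kpna2 and Kpna3 below 0.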

How the data were processed

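The authors deposited raw counts per gene, whole numbers, in 1 table of 55401 Ensembl IDs by 26 libraries. Per the labels' protocols, embryos were lysed directly and their total RNA was amplified with a stranded low-input kit (SMARTer Pico). The submitters' processing notes name cutadapt 1.7.1, STAR 2.5.0a and the GRCm38 build. Which program counted the reads, with which strand setting and gene models, is not given in these sources, so overlapping and antisense genes are uncertain. Symbols were taken from GENCODE vM21, which named 55141 IDs. The other 260 held 0.00563% of counts. A pseudogene, Kpna2-ps, averaged 0.055% of the counts of Kpna2. No 2 libraries agreed within sampling noise (lowest chi-square 32.8 per degree of freedom over 325 pairs).

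Counts were tested in R 4.3.3 with edgeR 4.0.16, the quasi-likelihood F test, TMM scaling, filterByExpr (minimum count 10, total 15) and Benjamini-Hochberg adjustment over all genes tested, with a threshold of 0.05. The SE is the log2 fold change divided by the square root of F, and the 95% interval uses the t distribution of the fit. The c-Myc inhibitor series was fitted alone (14 libraries), the alpha-amanitin series in 1 fit (12 libraries), the difference of effects in 22 libraries and the 2 sets of controls in 26. DESeq2 1.42.0, limma 3.58.1 voom, other scalings, no filter, other fits and leaving out each library were alternatives. Members, lists and tests were chosen with earlier results of these data known. The named genes were the members, 4 partners (Cse1l, Ran, Rcc1 and Tpx2), the 3 called transport genes with the smallest p per direction and comparison, and the 5 genes nearest to Kpna7 in group means (log2 of CPM plus 1, predicted genes left out).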

Additional observations from a re-analysis of the deposited data

Results flagged for a closer look

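Among 35 sets of values, 1 per member and group, 5 had a library far from the others of its group, and chance alone sets apart about 5 in 100. Kpna2 was at 488.6 CPM in control embryo replicate 1 of the alpha-amanitin series, where the others lay at 407.7 to 416.1. Kpna6 was at 204.7 CPM in control embryo replicate 4 of that series, where the others lay at 105.9 to 110.7. Kpnb1 was at 366.8 CPM in control embryo replicate 6 of the c-Myc inhibitor series, where the others lay at 272.2 to 307.2. Kpna4 was at 7.33 CPM in alpha-amanitin replicate 1 and at 1.00 CPM in control embryo replicate 2 of the same series, where the others were at 0 to 0.050 and 0 to 0.092. The last is a difference of few counts.

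Of the named genes, 2 nucleoporins were called when the difference of the c-Myc inhibitor and alpha-amanitin effects was tested. They were the 2 called of 56 transport genes tested, where 1.04% of all 15790 genes were called. Both had been named for their small p under the c-Myc inhibitor, so the choice was not independent of this test. That difference was 1.93 on the log2 scale for Ndc1 (SE 0.46, edgeR adjusted p = 0.03436) and 0.93 for Pom121 (SE 0.19, edgeR adjusted p = 0.01381). Ndc1 had log2 fold changes of 1.71 under the c-Myc inhibitor and -0.22 under alpha-amanitin, and Pom121 of 0.41 and -0.50. Neither was called under alpha-amanitin. The 2 sets of controls differed in Pom121, at 420.8 CPM in the c-Myc inhibitor series and 566.5 CPM in the other. Treated embryos were at 561.2 CPM under the c-Myc inhibitor and 396.9 CPM under alpha-amanitin, each series scaled on its own. The call for Ndc1 was lost in 8 of 28 alternatives, and that for Pom121 in 0 of 28.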

How the results depend on the processing

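Kpna3 was called lower under the c-Myc inhibitor in every alternative run, with 1 library left out (log2 fold change -0.62 to -0.54) and otherwise. The count of members called there, 2, became 1 without the filter on low counts, where Kpna2 had an adjusted p of 0.0785, and 1 in 1 fit of all 5 groups (Kpna2, 0.1502), and was 1 to 2 when single libraries were left out. In DESeq2 the count became 3, with Kpna1 added. Same-numbered libraries did not deviate together (r of -0.031 to 0.049 over the 4 pairs of groups). Own numbers matched best in 2 of 6 and, in each other pair of groups, 1 of 4. This does not exclude pairing. With the number as a replicate block, 1 member, Kpna3, was called under the c-Myc inhibitor. Kpna2 lost its call there, at -0.25 (edgeR adjusted p = 0.05783). On the same 12 libraries with no block 2 members were called, an alternative chosen after seeing the data. The 0 members called between control embryos and oocytes became 1, Kpna2, in DESeq2 and in 1 fit of all 5 groups. The 0 called between alpha-amanitin embryos and oocytes became 1, Kpna2, in DESeq2, limma voom and the fit of 5 groups, and was 0 to 1 with single libraries left out. For the difference of effects DESeq2 called 1, again Kpna2. Between the controls of the c-Myc inhibitor series and oocytes the count of 1 became 2 with raw library totals, DESeq2 and limma voom, which added Kpnb1. Counted without length, the Kpna7 share was 23.7% in oocytes and 19.1% in control embryos of the alpha-amanitin series. The cause of these changes was not tested.

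Signs turned for the values that follow, none of which passed the threshold. Kpna6 between alpha-amanitin and control embryos came to -0.013 without the filter, -0.023 in limma voom, -0.015 in the fit of 5 groups and -0.20 without alpha-amanitin replicates 1 and 3, and ran over -0.14 to 0.29 with single libraries left out. Between control embryos and oocytes it came to 0.0022 with RLE scaling, 0.0029 in DESeq2 and 0.0041 in the fit of 5 groups (single libraries left out: -0.31 to 0.16), and between alpha-amanitin embryos and oocytes to 0.032 with RLE scaling, 0.031 in DESeq2, 0.014 with raw totals and 0.016 with the replicate block (single libraries left out: -0.14 to 0.15). Kpna3 between alpha-amanitin and control embryos came to 0.0015 with raw totals (single libraries left out: -0.33 to 0.057). Kpna7 in the controls of the c-Myc inhibitor series came to -0.0039 with RLE scaling, -0.023 with raw totals and -0.0037 in DESeq2 against oocytes (single libraries left out: -0.022 to 0.077), and to -0.0074 with RLE scaling and -0.0073 in DESeq2 against the other controls. Without alpha-amanitin replicates 1 and 3, chosen after seeing the data, Kpna7 turned to 0.032 against control embryos, 0.012 against oocytes and -0.014 in the difference of effects. With single libraries left out, Kpna7 ran over -0.0094 to 0.081 and Kpnb1 over -0.0037 to 0.084 under the c-Myc inhibitor, Kpna7 over -0.084 to 0.0094 between control embryos and oocytes, and Kpnb1 over -0.23 to 0.033 between alpha-amanitin and control embryos and -0.0066 to 0.25 in the difference of effects.

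Counts of called genes over all genes moved more. The 4 between alpha-amanitin and control embryos became 433 in DESeq2, 103 in the fit of 5 groups, 89 without the filter, 10 in limma voom and 0 with the block. The 380 between control embryos and oocytes became 1217 in DESeq2, 940 in limma voom and 1409 in the fit of 5 groups, and the 225 between alpha-amanitin embryos and oocytes 809, 542 and 859. Under the c-Myc inhibitor 1418 became 381 in the fit of 5 groups. For the difference of effects 165 became 1409 in DESeq2 and 443 without the filter. Between the controls of the c-Myc inhibitor series and oocytes, and between both sets of controls, 1406 and 575 became 2208 and 2043 in DESeq2 and 2172 and 1192 in limma voom. With single libraries left out, the 380 ran over 212 to 725 (highest without alpha-amanitin replicate 3), the 225 over 122 to 330, the 165 over 92 to 272, the 575 over 405 to 949 and the 4 over 0 to 6. Of the transport genes, Nup50 lost its call against oocytes in 9 of 21 alternatives, Ndc1 in 3 of 21 for control and 2 of 21 for alpha-amanitin embryos, and Gle1 in 4 of 22 under the c-Myc inhibitor. Pom121, Nup35, Nup160 and Numa1 lost it in 1 of 22, the fit of 5 groups, and Ndc1 and Nup54 in 0 of 22. With the longest transcript as length, Kpna7 passed Kpna3 in oocytes (116.2 against 114.9 CPM per kb), where Kpna2 (156.3) then lay above both without overlap, and Kpna2 passed Kpna3 without overlap in control embryos of the alpha-amanitin series (207.1 against 159.7).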
